A study of Rattus norvegicus with 18 samples.

Results

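The 144 very long genes described here are protein-coding genes whose length in the deposited table is at least 10000 bases, out of 33898 genes in the table and 22250 that are protein-coding. Another 13 protein-coding genes of that length were left out, because the rule set aside certain gene symbols and gene families by name. The length is the deposited table's own. It was shorter than the genomic span for most genes and can join exons of several transcripts, so it need not be the length of any 1 RNA. The rule uses no measured expression value, but the members were chosen with earlier results of these data known.

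Genes of this kind encode very large proteins, such as the plakins and dystrophin relatives that tie the cytoskeleton together, the giant cadherins and endocytic receptors of the cell surface, the heavy chains of dynein motors, and very large ubiquitin ligases. Many of them span large stretches of the genome, and their RNAs take long to transcribe. Nucleus pulposus cells make the soft, gel-like centre of the discs between vertebrae. G-quadruplexes are folded structures of guanine-rich DNA or RNA, and the 3 compounds of the study are small molecules that bind and stabilise them.

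Nucleus pulposus cells from Sprague Dawley rats aged 8 weeks were grown in culture, plated for 24 h, and then exposed for 24 h. There were 6 groups of 3 libraries. They were cells given PDS, cells given Phen-DC3, cells given Braco-19, the PDS controls, the Phen-DC3 controls, and a control group whose titles name no compound and which was set against Braco-19 by elimination. Doses, and what the control cells received, are not stated in the labels. The 3 libraries of a group are termed biological repeats in the series text, yet their labels name no animal or culture of origin, so the p-values measure the spread between libraries, which may be technical.

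RNA was measured as counts per gene, with library totals of 15715121 to 18369443. Levels are given as CPM, the usual depth-scaled count, on library sizes scaled with TMM factors, and where genes are compared with each other as RPKM, which also divides by gene length. Of the 144 long genes, 111 passed the filter on low counts and were tested among 14184 genes. A gene is said to rise or fall where its adjusted p was under 0.05 in edgeR's quasi-likelihood test with Benjamini-Hochberg adjustment over all tested genes. Values after ± are standard errors (SE) for log2 fold changes and SD for shares of counts. The cultures were checked against marker genes. The nucleus pulposus list had counts for 13 of its 16 matched genes, while Krt19, Tbxt and Shh were at 0 in all libraries and Acan averaged 0.140 to 2.85 CPM per group. Krt18, 1 of the 13, had 4 counts in all. The list summed to 374 to 642 CPM per library, a large part of which was Hif1a (198 to 359 CPM per group). The annulus fibrosus or fibroblast list summed to more, 2740 to 7621 CPM per library, and the smooth muscle or pericyte list to 445 to 2251 CPM. Of the macrophage or leukocyte list 7 of 8 genes had counts. Cd14 averaged 34.0 to 116 CPM and Cd68 1.07 to 4.005 CPM per group, while Ptprc was at 0 in all libraries. Of the endothelial list 4 of 5 matched genes had counts, the list summed to at most 1.87 CPM in any library, and Cdh5 was at 0.

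The set was also compared with other genes in genomic span and level, both of which depend in part on the rule's length. The median genomic span was 143263 bases among the 111 tested long genes and 20333 bases among the 12647 tested protein-coding genes shorter than 10000 bases. The median level was 2.75 RPKM for the long genes and 9.40 RPKM for the others, so the long genes were less abundant per length in the mean of all 18 libraries. A span cannot be shorter than the exonic length, and RPKM divides by that length. The mean over libraries also includes the PDS and Phen-DC3 experiments, where long genes took a smaller share of counts than in the Braco-19 experiment.

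Because the compounds bind guanine runs, the promoters of the long genes were searched for a G-quadruplex letter pattern. The promoter sequences are RefSeq's for the GRCr8 assembly, 250 bases before to 50 bases after the gene start. Of the 144 genes, 105 were matched, all by gene symbol and none by Ensembl ID. Gene positions elsewhere in the text are those of the deposited table, whose build is not named, and Dst lies on the minus strand there and on the plus strand in GRCr8. The pattern searched was 4 runs of GGG or longer separated by 1 to 7 bases, or the same with CCC for the opposite strand, with overlapping matches counted once per promoter. It was present in 27 of the 105 promoters (25.7%), against 5563 of all 33469 promoters (16.6%). The median GC content was 62.3% in the long genes' promoters and 51.7% in all promoters. The 5 promoters below belong to genes that carry the results. They show a match on the gene's own strand (Dst, Macf1), a match on the opposite strand (Svep1, Kif1b) and no match (Wnk1), 5′ to 3′ along the gene, with every matched stretch in capitals (Macf1 holds 2).

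Dst chr9:43731772-43732071 (plus strand): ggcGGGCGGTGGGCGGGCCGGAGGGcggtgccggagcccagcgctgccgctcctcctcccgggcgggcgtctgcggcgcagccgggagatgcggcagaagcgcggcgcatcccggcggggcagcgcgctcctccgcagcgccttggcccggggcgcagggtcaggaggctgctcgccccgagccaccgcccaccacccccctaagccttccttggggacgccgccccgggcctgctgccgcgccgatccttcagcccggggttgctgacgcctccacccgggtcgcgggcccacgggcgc

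Macf1 chr5:141233841-141234140 (minus strand): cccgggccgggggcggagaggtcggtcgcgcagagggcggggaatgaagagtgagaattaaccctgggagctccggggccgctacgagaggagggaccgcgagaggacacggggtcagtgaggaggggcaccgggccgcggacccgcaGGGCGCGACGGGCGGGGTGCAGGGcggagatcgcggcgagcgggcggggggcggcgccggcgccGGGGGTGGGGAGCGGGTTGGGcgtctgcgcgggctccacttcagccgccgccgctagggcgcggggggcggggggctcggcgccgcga

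Svep1 chr5:77783243-77783542 (minus strand): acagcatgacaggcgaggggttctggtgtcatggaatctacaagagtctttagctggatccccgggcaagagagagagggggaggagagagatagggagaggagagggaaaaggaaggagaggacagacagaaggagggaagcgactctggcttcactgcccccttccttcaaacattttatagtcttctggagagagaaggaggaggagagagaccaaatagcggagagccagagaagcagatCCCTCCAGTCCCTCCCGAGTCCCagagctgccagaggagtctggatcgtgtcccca

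Kif1b chr5:165025799-165026098 (minus strand): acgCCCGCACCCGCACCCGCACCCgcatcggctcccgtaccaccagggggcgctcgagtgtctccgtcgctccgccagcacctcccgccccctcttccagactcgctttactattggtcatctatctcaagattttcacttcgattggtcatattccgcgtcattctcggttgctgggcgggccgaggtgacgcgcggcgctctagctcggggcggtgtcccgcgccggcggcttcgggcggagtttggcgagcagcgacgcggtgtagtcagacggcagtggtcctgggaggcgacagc

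Wnk1 chr4:154926098-154926397 (minus strand): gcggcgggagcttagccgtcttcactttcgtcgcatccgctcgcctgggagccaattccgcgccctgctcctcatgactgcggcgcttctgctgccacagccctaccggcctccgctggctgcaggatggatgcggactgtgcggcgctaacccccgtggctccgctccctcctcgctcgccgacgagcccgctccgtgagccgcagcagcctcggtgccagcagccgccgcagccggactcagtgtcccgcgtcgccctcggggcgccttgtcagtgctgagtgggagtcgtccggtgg

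In Dst, which encodes the plakin dystonin, and in Kif1b, a kinesin of axonal transport, the matched letters stood at the upstream end of the window. In Svep1, a secreted adhesion protein, they spanned the gene start. Dst, Macf1 and Svep1 fell with Phen-DC3. So did Wnk1, whose window held no match, while Kif1b, with a match, did not. Among tested long genes with a matched promoter, 14 of the 38 that fell with Phen-DC3 held the pattern (36.8%), and 8 of the 43 that were not called (18.6%). With Phen-DC3 the median log2 fold change was -0.57 for the 22 long genes with the pattern and -0.45 for the 59 without. For PDS those medians were -0.00 and 0.18, and for Braco-19 they were -0.10 and -0.10. These counts are descriptions. A match is not a shown structure, and the absence of one says only that these letters are not in this window.

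The long genes took a far larger part of all counts in the Braco-19 experiment than in the PDS and Phen-DC3 experiments. They took 0.384, 0.407 and 0.418% of all counts with PDS, against 0.408, 0.393 and 0.343% in PDS controls. Their share was 0.311, 0.341 and 0.362% with Phen-DC3, against 0.493, 0.465 and 0.403% in Phen-DC3 controls. With Braco-19 it was 1.99, 1.75 and 1.89%, against 1.87, 1.88 and 1.91% in the control libraries. The PDS and Phen-DC3 experiments, controls included, thus all lay under 0.5%, and the Braco-19 experiment above 1.7%.

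**Figure D1:**
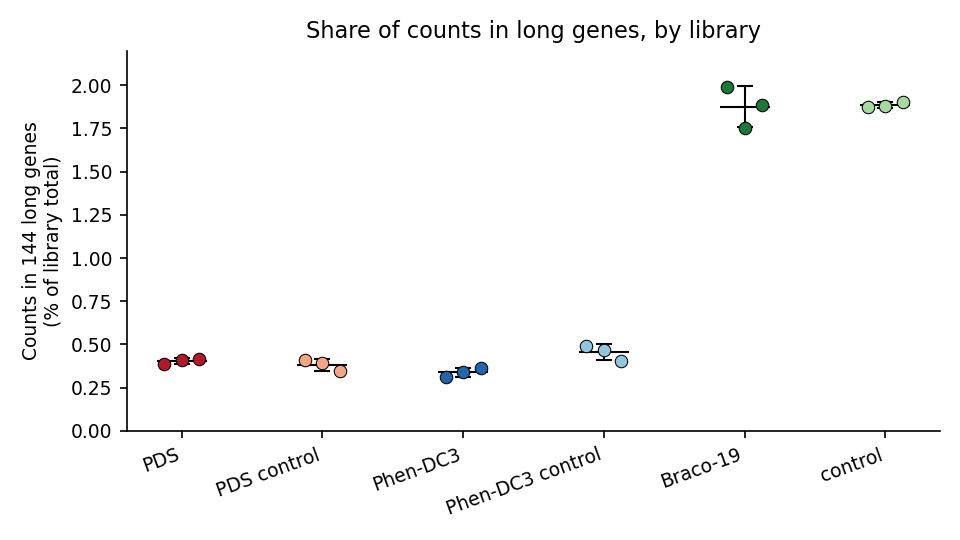
Percent of all counts that fall in the 144 long genes, one point per library, with a line at the mean and a bar of 1 SD either way for the 3 libraries of a group. The 12 libraries of the PDS and Phen-DC3 experiments sit between 0.311 and 0.493%, and the 6 of the Braco-19 experiment between 1.75 and 1.99%.

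The mean share with PDS was 0.403 ± 0.0173% and in PDS controls 0.382 ± 0.0338% (SD, n = 3 each, exact permutation test, two-sided, p = 0.5). With Phen-DC3 it was 0.338 ± 0.0258% and in its controls 0.454 ± 0.0459%, without overlap (exact permutation p = 0.1). With Braco-19 it was 1.88 ± 0.118% and in the control group 1.89 ± 0.0172% (exact permutation p = 0.9). For 3 against 3 libraries the smallest p this test can give is 0.1, so none of these could pass 0.05. In bulk RNA, fewer cells of a type and less RNA per cell cannot be told apart.

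With Phen-DC3, long genes fell as a group. Of the 111 tested, 0 rose, 50 fell and 61 were not called, so 45.0% fell, against 5.82% of all 14184 tested genes, of which 2.19% rose. Their median log2 fold change was -0.47, against -0.01 over all tested genes. All 3 Phen-DC3 libraries lay below all 3 controls for 61 long genes (11.9% of all genes did so), and the reverse held for 1. The genes that fell included spectraplakins, giant cadherins, ubiquitin ligases, and lipid-transfer proteins.

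Among cytoskeletal linkers and scaffolds, 11 of 15 tested genes fell, 0 rose and 4 were not called, with a median log2 fold change of -0.57. Macf1, a spectraplakin that joins actin to microtubules (ENSRNOG00000016047, chromosome 5, 141039468 to 141363524, minus strand, length 24116 bases), had 77.1, 79.0 and 93.6 CPM with Phen-DC3, against 142, 127 and 105 CPM in its controls. The groups did not overlap, and the log2 fold change was -0.58 ± 0.10 (adjusted p = 0.011). Dst (ENSRNOG00000012207, chromosome 9, 37902303 to 38196273, minus strand, length 23724 bases) had 66.5, 79.7 and 97.0 CPM with Phen-DC3, against 147, 133 and 111 CPM in its controls, a log2 fold change of -0.68 ± 0.13 (adjusted p = 0.012). The highest treated library of Dst was still below the lowest control. Ahnak, a giant scaffold under the plasma membrane (ENSRNOG00000057569, chromosome 1, 225184939 to 225215015, plus strand, length 17602 bases), had 222, 252 and 255 CPM with Phen-DC3, against 393, 373 and 314 CPM in its controls. It fell (-0.57 ± 0.09, adjusted p = 0.011), again with no overlap. Dmd, which encodes dystrophin, was low, with 1.23, 2.05 and 1.31 CPM against 3.68, 2.33 and 2.45 CPM in controls, and fell (-0.88 ± 0.25, adjusted p = 0.036). Its relative Utrn, utrophin, fell (-0.50 ± 0.10), as did the cytolinker Plec, plectin (-0.39 ± 0.11), both without overlap between the groups. Nav2, a neuron navigator protein that binds growing microtubules, also fell (-0.59 ± 0.13).

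Ubiquitin ligases, deubiquitinases and related genes fell in 8 of 11 cases, with 0 higher, 3 not called and a median log2 fold change of -0.59. Usp9x, a deubiquitinase (ENSRNOG00000003261, chromosome X, 10510033 to 10630297, minus strand, length 12259 bases), had 44.6, 52.8 and 61.8 CPM with Phen-DC3, against 105, 111 and 68.4 CPM in its controls. The log2 fold change was -0.83 ± 0.17 (adjusted p = 0.016), and control replicate 3 lay nearest to the treated libraries. Huwe1, a HECT-type ubiquitin ligase, had 29.9, 34.8 and 43.5 CPM with Phen-DC3, against 65.4, 53.7 and 48.1 CPM in its controls (-0.63 ± 0.13, adjusted p = 0.015). Birc6, an inhibitor of apoptosis that also conjugates ubiquitin, fell (-0.79 ± 0.21, adjusted p = 0.039) although its groups overlapped. The deubiquitinase gene Usp24 (-0.59 ± 0.11) and the ligase gene Herc1 (-0.53 ± 0.10) fell without overlap.

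Of 19 tested genes for matrix, adhesion and surface receptors, 6 fell, 0 rose and 13 were not called (median -0.45). Fat4, a giant cadherin of the planar polarity pathway (ENSRNOG00000028335, chromosome 2, 125752130 to 125879387, plus strand, length 16081 bases), had the largest fall, -1.05 ± 0.23 (adjusted p = 0.016). Its values were 1.36, 1.52 and 1.37 CPM with Phen-DC3, against 3.74, 2.27 and 2.80 CPM in its controls, so this largest change was that of a gene with low counts. Fat1, a related cadherin at a far higher level (ENSRNOG00000030954, chromosome 16, 50372128 to 50501921, minus strand, length 15025 bases), had 68.2, 79.8 and 82.3 CPM with Phen-DC3, against 149, 123 and 110.0 CPM in its controls. It fell (-0.73 ± 0.12, adjusted p = 0.011) and the groups were apart. Lrp1, an endocytic receptor for proteases, lipoproteins and matrix proteins (ENSRNOG00000025053, chromosome 7, 70846344 to 70926903, minus strand, length 14714 bases), had 168, 202 and 168 CPM with Phen-DC3, against 292, 246 and 234 CPM in its controls (-0.52 ± 0.11, adjusted p = 0.016). The Notch receptor gene Notch2 (-0.52 ± 0.09) and Svep1 (-0.52 ± 0.11) fell too, both without overlap.

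Among 11 tested genes of transcription and chromatin, 5 fell, 0 rose and 6 were not called (median -0.54). Nfat5, the transcription factor of the response to high osmolarity (ENSRNOG00000011879, chromosome 19, 38446059 to 38533735, minus strand, length 13565 bases), had 19.4, 24.1 and 29.3 CPM with Phen-DC3, against 53.8, 45.0 and 34.2 CPM in its controls. It fell (-0.87 ± 0.17, adjusted p = 0.015), with the groups apart. Zfhx4, a zinc finger and homeobox protein (ENSRNOG00000008765, chromosome 2, 98423569 to 98610368, minus strand, length 13927 bases), had 2.65, 3.40 and 6.47 CPM with Phen-DC3, against 9.16, 9.51 and 7.24 CPM in its controls (-1.04 ± 0.22, adjusted p = 0.016). Phen-DC3 replicate 3 lay far above the other treated libraries of that gene, close to the lowest control. The acetyltransferase gene Crebbp fell (-0.65 ± 0.13), as did Ankrd17, which encodes a large ankyrin repeat protein (-0.54 ± 0.11).

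Motor, centrosome and Golgi genes fell in 5 of 11 cases (0 higher, 6 not called, median -0.49). They included Dync1h1, the heavy chain of cytoplasmic dynein (-0.64 ± 0.18), Dync2h1, the dynein heavy chain of cilia (-0.75 ± 0.21), Akap9, a scaffold of the centrosome and Golgi (-0.70 ± 0.14), and Golgb1, the Golgi tether giantin (-0.70 ± 0.15). Lipid-transfer and BEACH-domain genes fell in 3 of 4 cases (median -0.63), namely Vps13c (-0.68 ± 0.17), Vps13d (-0.58 ± 0.12) and the autophagy adaptor Wdfy3 (-0.69 ± 0.16). Among 4 kinase and guanine nucleotide exchange genes 3 fell (median -0.51), which were Akap13, a guanine nucleotide exchange factor (-0.66 ± 0.13), Wnk1, a kinase that controls salt transport (-0.64 ± 0.11), and Dock8, an exchange factor for Cdc42 (-0.38 ± 0.09). The Dock8 model (33007 counts in all) overlaps 2 models on the other strand, 1 of them with 24199 counts. Their reads cannot be told apart if the counting ignored strand. Of the pair of genome maintenance genes, Prkdc, the catalytic subunit of DNA-dependent protein kinase, fell (-0.68 ± 0.18, adjusted p = 0.030), while Rev3l, the catalytic subunit of DNA polymerase zeta, had -0.52 ± 0.24 (adjusted p = 0.156). Of 3 channel and transporter genes 1 fell, the cholesterol exporter Abca1 (-0.65 ± 0.18), while Ryr1, the calcium release channel of skeletal muscle, had 0.97 ± 0.60 at under 1 CPM. Neither RNA gene was called, with -0.81 ± 0.23 for the nuclear pore gene Ranbp2 (adjusted p = 0.0503) and -0.28 ± 0.10 for Tnrc6b, a partner of Argonaute in microRNA silencing. Of 29 tested long genes on no list, 7 fell and 0 rose (median -0.35).

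**Figure D2:**
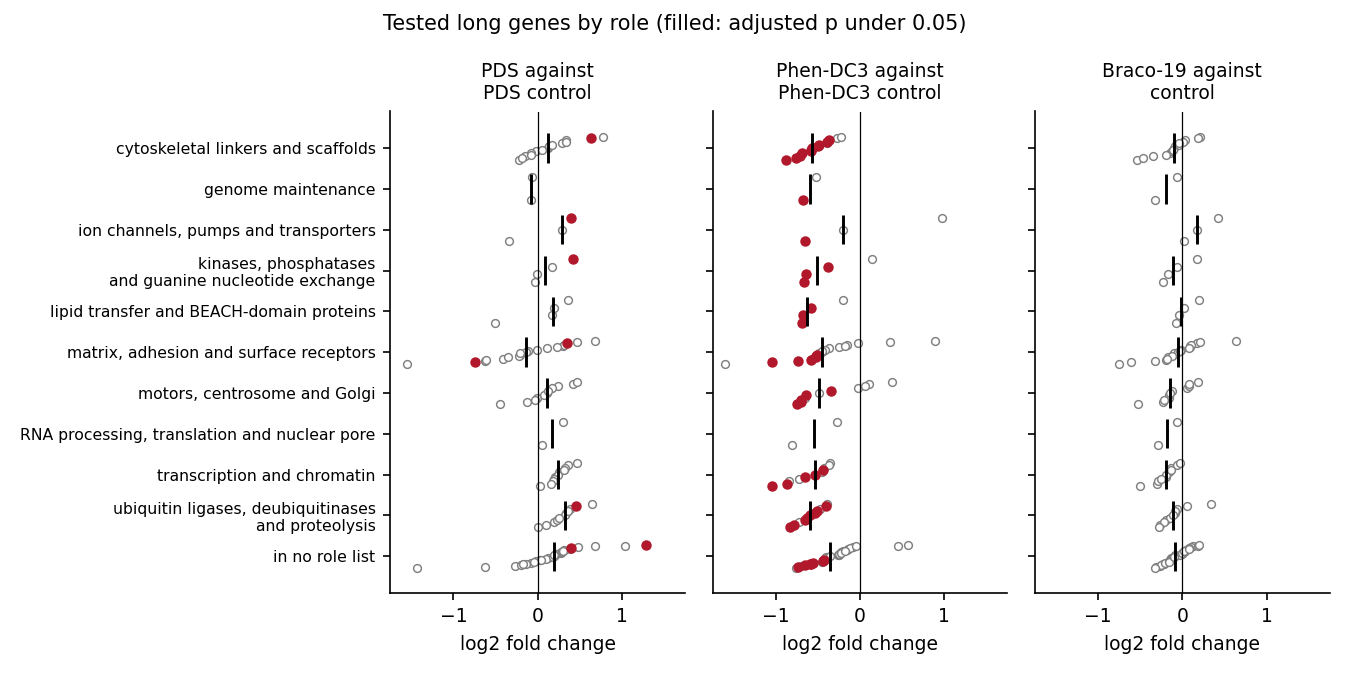
Log2 fold change of each tested long gene under each compound, one point per gene, arranged by role, with filled points for adjusted p under 0.05 and short bars at each role's median. Under Phen-DC3 all 50 filled points lie left of 0, under PDS 7 lie right and 1 left, and under Braco-19 there are 0. Values beyond the axis are drawn at its end, which applies to 1 gene (Cubn, -3.19 with Phen-DC3, not called).

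The Phen-DC3 calls rested on few libraries. Without Phen-DC3 control replicate 1, or without Phen-DC3 replicate 1, 0 long genes were called lower by edgeR (3 and 0 of all genes). Without Phen-DC3 replicate 2 there were 4 (21 of all genes), and without Phen-DC3 control replicate 2 there were 16 (119 of all genes). There were 67 without Phen-DC3 control replicate 3 (1864 of all genes) and 62 without Phen-DC3 replicate 3 (1604 of all genes). The calls of all genes thus moved with those of the long genes. The calls of Ahnak, Fat1 and Lrp1 were lost without Phen-DC3 control replicate 1 or Phen-DC3 replicate 1 and held in the other 4 cases. In all 6 cases the median log2 fold change lay between -0.57 and -0.38. Fitted on the 6 libraries alone, 0 long genes were called. The smooth muscle marker list (6 of 6 genes detected) summed to 1696 to 1992 CPM with Phen-DC3 and 1371 to 1625 CPM in its controls, and the nucleus pulposus list to 387 to 471 CPM with Phen-DC3 and 448 to 535 CPM in its controls. The macrophage or leukocyte list summed to 108 to 118 CPM with Phen-DC3 and 95.5 to 107 CPM in its controls, and the neural or Schwann list to 58.9 to 70.4 CPM with Phen-DC3 and 56.4 to 58.3 CPM in its controls. In each list 1 gene made most of the difference. These were Tagln (means of 1463 and 1128 CPM), Hif1a (214 and 289 CPM), Cd14 (111 and 100 CPM) and S100b (57.7 and 51.4 CPM). Myh11 (7.21 and 8.51 CPM) and Krt8 (15.5 and 12.5 CPM) went against the sums of their lists. The part of these lists in the result was not tested.

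The fall with Phen-DC3 followed gene length across the tested protein-coding genes and was not confined to the longest. By length class of these genes, the median log2 fold change was 0.25 in genes under 1 kb, 0.11 between 1 and 2 kb, 0.00 between 2 and 3 kb, -0.13 between 3 and 5 kb, -0.30 between 5 and 10 kb and -0.47 in the long genes. The share called lower was 0.374%, 0.646%, 2.02%, 8.09%, 29.1% and 45.0% in the same classes. Among the 111 long genes themselves the Spearman correlation of the log2 fold change with length was -0.025, a description across genes that share libraries.

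**Figure D3:**
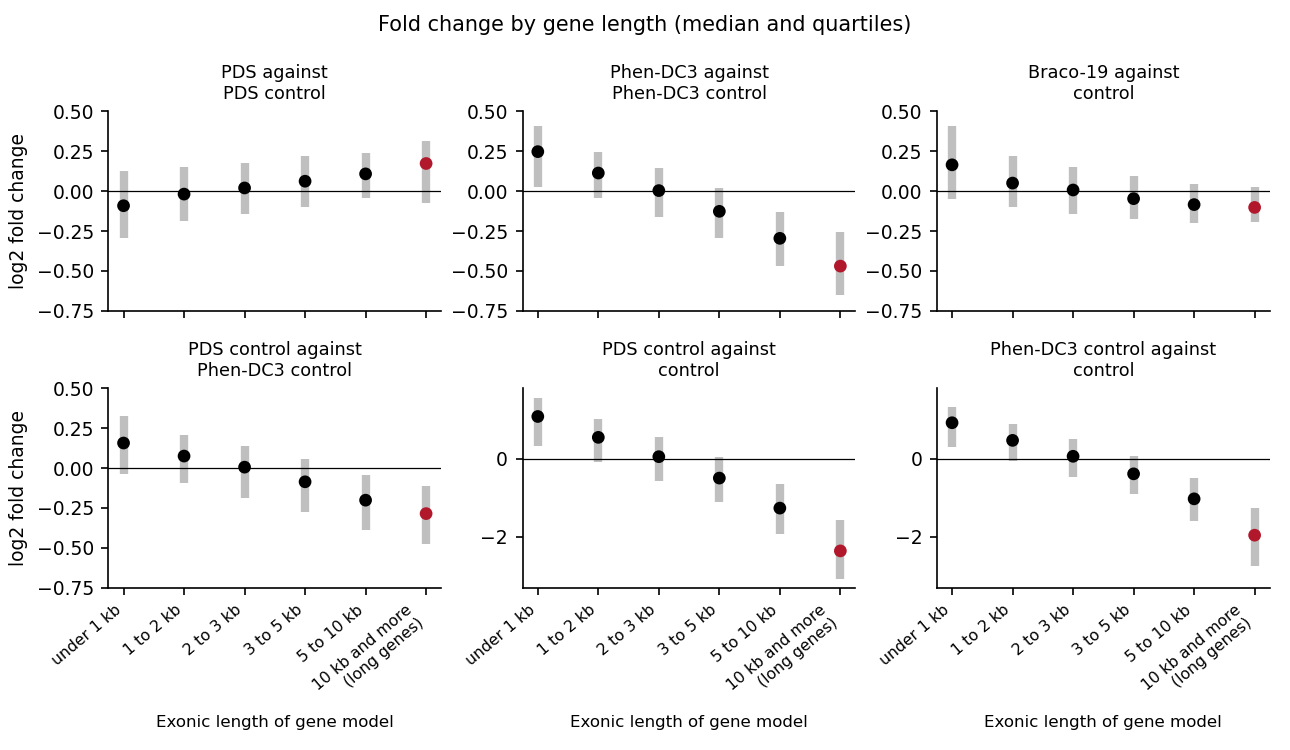
Median and quartiles of the log2 fold change in 6 length classes of tested protein-coding genes for the 3 compound comparisons and 3 comparisons between control groups, with panels on different vertical scales. The medians of the long genes are 0.17 (PDS), -0.47 (Phen-DC3), -0.10 (Braco-19), -0.29 (PDS control against Phen-DC3 control), -2.36 (PDS control against control) and -1.96 (Phen-DC3 control against control).

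In an alternative fit each library's trend with gene length was removed first. With it, edgeR called 0 long genes lower with Phen-DC3 (0.169% of all genes were) and 3 higher (0.155% of all genes), and 21 long genes had an unadjusted p under 0.05 in either direction. The 3 were Kif1b at 0.72 ± 0.13 (adjusted p = 0.029), Abcb4, a phospholipid transporter, at 0.44 ± 0.07 (adjusted p = 0.015), and Tnrc6b at 0.37 ± 0.08 (adjusted p = 0.038). Macf1 then had 0.19 ± 0.07, Dst 0.07 ± 0.07, Ahnak 0.09 ± 0.07 and Fat1 -0.13 ± 0.07. A change of the RNAs that follows length would be removed by this correction as well, so it shows only that no long gene was called below the trend of all genes.

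**Figure D4:**
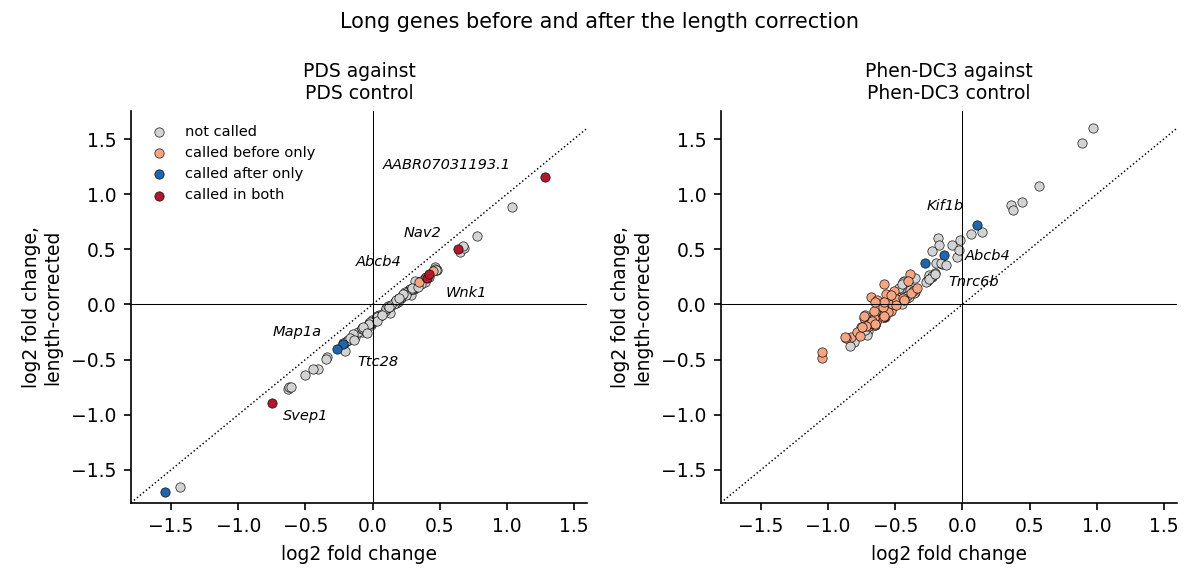
Log2 fold change of the tested long genes after the length correction (vertical axis) against that before it (horizontal axis), for PDS and Phen-DC3, colored by whether the gene was called before, after or in both. Under Phen-DC3 the 50 genes called before are not called after and 3 others are; the dotted line marks equal values, genes called after correction are named where their mean log2 CPM reached 2, and 1 gene at -3.19 (Cubn, Phen-DC3) lies outside the axes.

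With PDS the long genes moved little, and those that moved mostly rose. Of 111, 7 rose (6.31%, against 5.13% of all tested genes), 1 fell (0.901%, against 2.96%) and 103 were not called, so neither share stood far from that of all genes. Their median was 0.17, against 0.02 over all tested genes. From protein-coding genes under 1 kb to those of 5 to 10 kb, the class medians were -0.09, -0.02, 0.02, 0.06 and 0.11. They thus also ran with length, and after the length correction the median of the long genes was 0.02. All 3 treated libraries lay above all 3 controls for 26 long genes (17.7% of all genes did so) and below them for 4 (15.6% of all genes).

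The unnamed gene model AABR07031193.1 (ENSRNOG00000011300, chromosome 18, 3705916 to 3940838, plus strand, length 10044 bases) rose most. It had 11.9, 11.96 and 12.2 CPM with PDS, against 5.50, 4.60 and 4.67 CPM in PDS controls, with the groups far apart (log2 fold change 1.29 ± 0.17, adjusted p = 5.4e-05). Nav2 (ENSRNOG00000014530, chromosome 1, 104576589 to 104941552, plus strand, length 10782 bases) had 17.8, 20.3 and 20.4 CPM with PDS, against 14.1, 12.02 and 11.4 CPM in PDS controls (0.64 ± 0.13, adjusted p = 0.0033), without overlap. Abcb4 (ENSRNOG00000008012, chromosome 4, 22133521 to 22425515, minus strand, length 14132 bases) had 285, 281 and 291 CPM with PDS, against 224, 212 and 212 CPM in PDS controls. Its libraries lay close together within each group, and it rose (0.40 ± 0.08, adjusted p = 0.0019). Pkd1, which encodes polycystin-1, had 85.7, 94.2 and 88.8 CPM with PDS, against 73.4, 74.3 and 56.4 CPM in PDS controls (0.40 ± 0.09, adjusted p = 0.0067). The Pkd1 model overlaps Tsc2 on the other strand, and reads of the 2 genes cannot be told apart if the counting ignored strand.

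Wnk1 had 69.2, 70.4 and 71.6 CPM with PDS, against 54.0, 55.1 and 48.9 CPM in PDS controls (0.42 ± 0.11, adjusted p = 0.024), and all treated libraries were higher. Hectd4, a HECT-domain ubiquitin ligase, rose (0.45 ± 0.14, adjusted p = 0.045), and so did Notch2 (0.35 ± 0.09, adjusted p = 0.021). The call of Wnk1 was lost without any 1 of the 6 libraries, that of Hectd4 without any of them except PDS replicate 1, and that of Notch2 without PDS replicate 2, PDS replicate 3 or PDS control replicate 3. Svep1 (ENSRNOG00000033110, chromosome 5, 75143867 to 75319765, minus strand, length 12212 bases) was the gene that fell. It had 38.0, 39.6 and 44.6 CPM with PDS, against 69.6, 77.5 and 58.1 CPM in PDS controls, with no overlap (-0.75 ± 0.11, adjusted p = 2.8e-04).

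By role, 1 of 15 cytoskeletal genes, 1 of 3 channel genes, 1 of 4 kinase and exchange genes, 1 of 11 ubiquitin genes and 2 of 29 unlisted genes rose with PDS, and of 19 matrix and surface genes 1 rose and 1 fell. Of 11 transcription genes, 11 motor and Golgi genes, 4 lipid-transfer genes and the pairs for genome maintenance and RNA, 0 were called by edgeR in either direction. Medians by role ran from -0.14 in the matrix and surface genes to 0.32 in the ubiquitin genes. After the length correction 4 long genes rose (4.79% of all genes did) and 4 fell (3.84% of all genes did). AABR07031193.1, Nav2, Abcb4 and Wnk1 stayed higher. Svep1 stayed lower at -0.90 ± 0.08 (adjusted p = 1.3e-07), and the genes newly called lower were Map1a, a microtubule-associated protein (-0.36 ± 0.07), Ttc28, a tetratricopeptide repeat protein (-0.40 ± 0.10), and Celsr2, an atypical cadherin with at most 0.544 CPM in these libraries (-1.70 ± 0.51). Without PDS replicate 2, PDS replicate 3 or PDS control replicate 3, 4 long genes were called higher in place of 7. Of all genes 439, 372 and 480 were then called higher, in place of 728. Without PDS control replicate 3 there were 3 long genes called lower in place of 1 (271 of all genes in place of 420). The smooth muscle list summed to 2062 to 2251 CPM with PDS and to 1547 to 1702 CPM in PDS controls. Nearly all of that difference was Tagln (means of 1827 and 1303 CPM). Acta2 (290 and 283 CPM), Cnn1 (43.2 and 43.7 CPM) and Myh11 (7.06 and 6.38 CPM) differed little. The neural or Schwann list summed to 38.6 to 46.7 CPM with PDS and to 54.8 to 65.5 CPM in PDS controls. Most of that sum was S100b (39.0 and 52.4 CPM). The part of these lists in the result was not tested.

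With Braco-19 no change of a long gene passed the test in the fit over all libraries. Of 111, 0 rose and 0 fell in edgeR's test, where 0.169% of all genes rose and 0.106% fell, and 7 long genes had an unadjusted p under 0.05. DESeq2 also called 0, with 8 at an unadjusted p under 0.05 and 34 left without an adjusted p. On the 6 libraries of this comparison alone, edgeR called 1 long gene higher and 3 lower. The median log2 fold change was -0.10, against 0.00 over all genes, and all Braco-19 libraries lay below all control libraries for 24 long genes (14.4% of all genes) and above them for 5 (13.7%). From protein-coding genes under 1 kb to those of 5 to 10 kb, the class medians were 0.17, 0.05, 0.01, -0.05 and -0.08. After the length correction the median of the long genes was 0.02. Lrp1 had 2850.4, 2599 and 2858 CPM with Braco-19, against 2548, 2625 and 2617 CPM in the control group (0.09 ± 0.11, adjusted p = 0.668), and its groups overlapped. Ahnak had 1187, 1127 and 982 CPM with Braco-19, against 929, 925 and 1007 CPM in the control group (0.20 ± 0.09, adjusted p = 0.241). After the length correction Ahnak was the 1 long gene called, at 0.35 ± 0.07 (adjusted p = 0.041), where 0.19% of all genes were called higher.

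The effects of the compounds were compared in the same fit as differences of log2 fold changes. For 54 long genes the PDS effect was above the Phen-DC3 effect, and for 0 below it (48.6%, against 12.4% of all tested genes with the PDS effect higher and 7.76% lower). The largest difference was 1.73 for Fat4 (adjusted p = 0.0020), which had 0.68 ± 0.22 with PDS (adjusted p = 0.058) and fell with Phen-DC3. Dmd differed by 1.65 (adjusted p = 0.0045) and AABR07031193.1 by 1.51 (adjusted p = 0.0011). Notch2, Wnk1 and Nav2 rose with PDS and fell with Phen-DC3, and their effects differed by 0.86, 1.05 and 1.22 (adjusted p = 5.3e-04, 6.2e-04 and 5.3e-04). Svep1 fell with both. After the length correction 5 long genes had the higher effect with PDS (6.85% of all genes) and 7 the lower (6.42%).

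PDS and Braco-19 differed for 11 long genes, 10 with the higher effect under PDS (7.28% of all genes) and 1, Svep1, with the lower (6.75% of all genes). The difference was 1.53 for AABR07031193.1, 1.24 for Dmd, 1.01 for Fat4 and -0.92 for Svep1 (adjusted p = 3.2e-04, 0.019, 0.019 and 0.0013). After the length correction 4 long genes had the higher effect under PDS (7.5% of all genes) and 7 the lower (6.99%). Phen-DC3 and Braco-19 differed for 1 long gene, Ahnak (-0.77, adjusted p = 0.038), with the lower effect under Phen-DC3 (0.0353% of all genes, and 0.0141% with the higher), and for 0 after the length correction, where edgeR called 0 genes in all and 11 long genes had an unadjusted p under 0.05. Although the fall of long genes with Phen-DC3 was seen in 50 genes and with Braco-19 in 0, a difference between those effects was called for 1 gene.

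The PDS and Phen-DC3 controls each differed far more from the control group than any compound differed from its own control. Of the 111 long genes, 100 were lower in PDS controls than in the control group and 2 were higher (91.9% called, 37.7% of all genes lower and 35.6% higher), with a median log2 fold change of -2.36 against -0.02 over all genes. In Phen-DC3 controls set against the control group, 100 were lower and 2 higher (34.9% of all genes lower and 34.6% higher), with a median of -1.96 against 0.00. Both comparisons share the control libraries, and 98 long genes were lower in both. The long genes' mean share of counts was 0.382 ± 0.0338% in PDS controls, 0.454 ± 0.0459% in Phen-DC3 controls and 1.89 ± 0.0172% in the control group (SD, n = 3 each, exact permutation p = 0.1 for each against the control group, the smallest possible).

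Reln, the secreted glycoprotein reelin (ENSRNOG00000021441, chromosome 4, 9347528 to 9773670, plus strand, length 11096 bases), had 4.17, 4.95 and 3.11 CPM in PDS controls and 3.30, 3.19 and 3.74 CPM in Phen-DC3 controls, against 146, 122 and 134 CPM in the control group. It showed the largest differences of the long genes named here, -5.03 ± 0.15 for PDS controls (adjusted p = 8.0e-16) and -5.29 ± 0.15 for Phen-DC3 controls (adjusted p = 5.9e-16). Lrp1 had 231, 256 and 176 CPM in PDS controls and 292, 246 and 234 CPM in Phen-DC3 controls, against 2548, 2625 and 2617 CPM in the control group, so it was 11.7-fold and 10.1-fold lower in the compound-named controls. Dst was 14.3-fold lower in PDS controls and 10.8-fold lower in Phen-DC3 controls, where the control group had 1318, 1411 and 1475 CPM. Fat4 was 22.4-fold and 14.8-fold lower in PDS controls and Phen-DC3 controls against the control group. Dync1h1 had log2 fold changes of -3.48 ± 0.19 and -3.46 ± 0.19 in the same comparisons. The unnamed model RGD1307100 was 12.7-fold lower in PDS controls. Every tested cytoskeletal gene (15 of 15), transcription gene (11 of 11), ubiquitin gene (11 of 11) and kinase or exchange gene (4 of 4) was lower in both compound-named controls, as were both genome maintenance and both RNA genes. Among 11 motor genes 7 and 8 were lower, among 19 matrix and surface genes 16 and 17, among 4 lipid-transfer genes 3 and 3, and among 3 channel genes 2 and 2, in PDS controls and Phen-DC3 controls.

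A few long genes stood apart from this pattern. Kif1b (ENSRNOG00000057626, chromosome 5, 165938576 to 166133491, minus strand, length 15549 bases) had 732, 764 and 699.6 CPM in PDS controls and 632, 642 and 669 CPM in Phen-DC3 controls, against 725, 720.0 and 689.8 CPM in the control group. Its log2 fold changes of 0.04 ± 0.06 and -0.14 ± 0.06 were among the smallest of the set (adjusted p = 0.541 and 0.048). Asph, an enzyme that hydroxylates aspartate and asparagine in secreted proteins, had -0.32 ± 0.09 in PDS controls and -0.10 ± 0.09 in Phen-DC3 controls. Pcdha13, a protocadherin, and Zfp84, a zinc finger gene, had log2 fold changes of -0.49 and -0.53 in PDS controls and -0.32 and -0.38 in Phen-DC3 controls. The genes higher in both were Myo15a, a myosin of hair cells, at 1.14 ± 0.37 and 0.88 ± 0.38, and the receptor gene Adgrv1, at 1.25 ± 0.40 and 1.33 ± 0.40. Both were low, with 0.725, 0.884 and 1.20 CPM of Adgrv1 in PDS controls, against 0.622, 0.297 and 0.249 CPM in the control group. Without any 1 of the libraries other than Phen-DC3 control replicate 1, edgeR called 1 long gene higher in Phen-DC3 controls in place of 2.

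**Figure D5:**
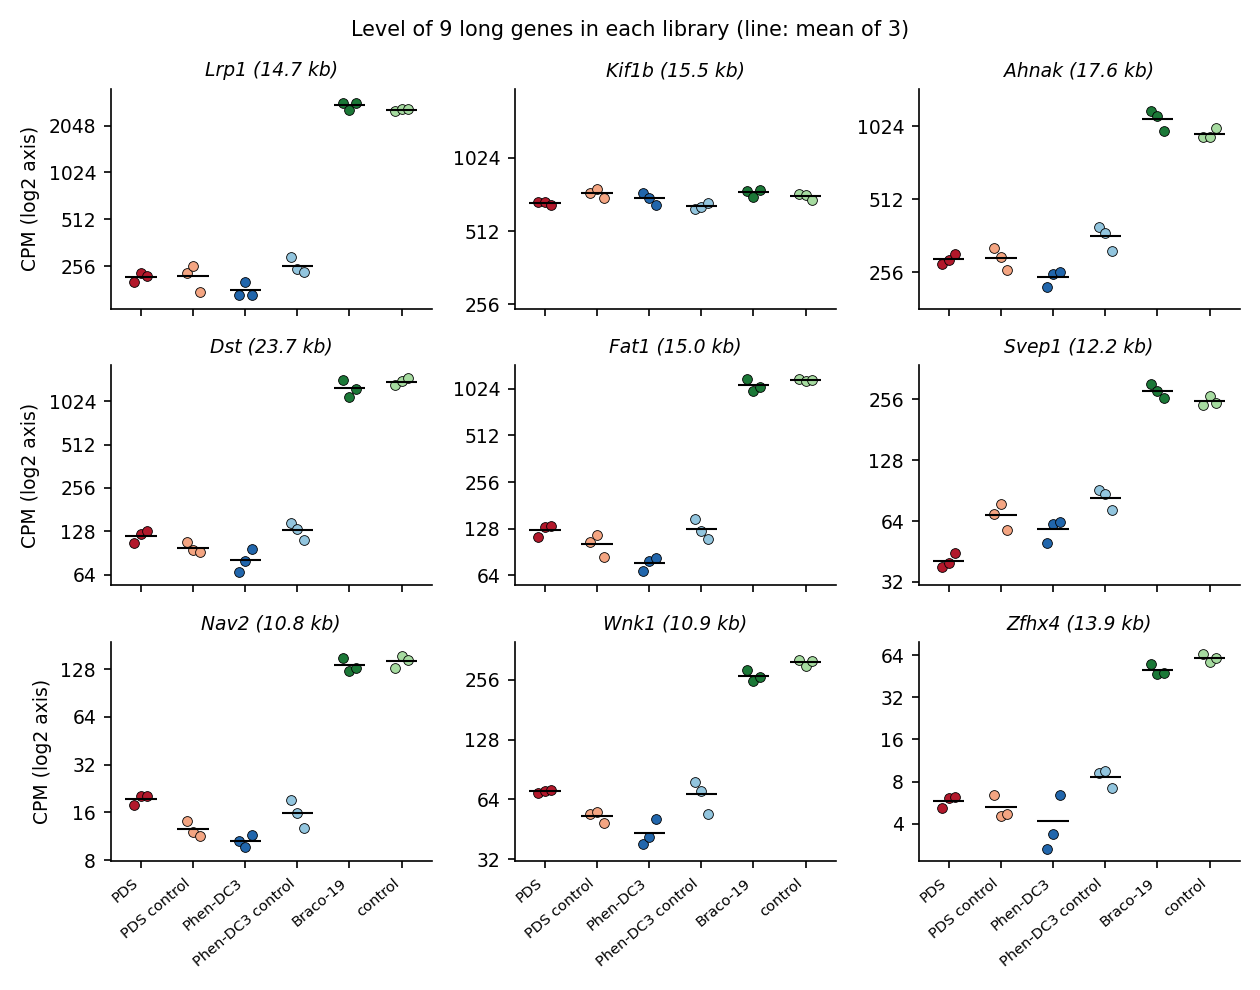
Level in CPM (log2 axis, a different range in each panel) of 9 long genes in each of the 18 libraries, with a line at the mean of the 3 libraries of a group. Lrp1, Ahnak, Dst, Fat1, Svep1, Nav2, Wnk1 and Zfhx4 are higher in all 6 Braco-19 and control libraries than in the other 12, whereas Kif1b lies between 632 and 764 CPM throughout.

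Here too the difference followed gene length among the tested protein-coding genes. The median log2 fold change of PDS controls against the control group was 1.08 in genes under 1 kb, 0.54 at 1 to 2 kb, 0.05 at 2 to 3 kb, -0.50 at 3 to 5 kb, -1.27 at 5 to 10 kb and -2.36 in the long genes, and that of Phen-DC3 controls was 0.92, 0.47, 0.06, -0.39, -1.03 and -1.96. The Spearman correlation with length over the 111 long genes alone was -0.302 and -0.319. Once each library's length trend was removed, the long genes lay on both sides, with 43 higher and 42 lower in PDS controls (33.7% and 33.4% of all genes) and 41 higher and 36 lower in Phen-DC3 controls (31.7% and 31% of all genes). Reln stayed lowest at -2.86 and -3.44, and Kif1b was at 2.79 and 2.22. The fibroblast marker list (8 of 9 genes detected) summed to 2880 to 3250 CPM in PDS controls and 3187 to 3302 CPM in Phen-DC3 controls, against 5805 to 6961 CPM in the control group. The smooth muscle list summed to 1547 to 1702 CPM and 1371 to 1625 CPM, against 445 to 657 CPM. The macrophage or leukocyte list summed to 108 to 114 CPM in PDS controls and 95.5 to 107 CPM in Phen-DC3 controls, against 34.5 to 42.4 CPM in the control group. The neural or Schwann list (6 of 6 genes detected) summed to 54.8 to 65.5 CPM and 56.4 to 58.3 CPM, against 23.1 to 27.9 CPM, and the nucleus pulposus list to 374 to 431 CPM and 448 to 535 CPM, against 576 to 642 CPM. In each list 1 gene made most of the difference. Col1a1 averaged 1356 CPM in PDS controls, 1413 in Phen-DC3 controls and 4855 in the control group. Tagln averaged 1303, 1128 and 431 CPM in the same order, and Cd14 110, 100 and 34.0 CPM. S100b averaged 52.4, 51.4 and 22.4 CPM, and Hif1a 198, 289 and 359 CPM. Genes such as Thy1 (935, 798 and 560), Cd68 (1.07, 1.15 and 2.57) and Cd24 (37.3, 39.8 and 13.7 CPM) went against their lists' sums. The part of these lists in the result was not tested. The compound-named experiments and the experiment of the unnamed control cannot be told apart from batches of cells or libraries.

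PDS controls and Phen-DC3 controls also differed from each other. Of 111 long genes 20 were lower in PDS controls (18.0%, against 4.5% of all genes) and 0 higher (1.59% of all genes), with a median log2 fold change of -0.29. From protein-coding genes under 1 kb to those of 5 to 10 kb, the class medians were 0.16, 0.08, 0.01, -0.09 and -0.20. Ranbp2 had 32.5, 19.9 and 31.1 CPM in PDS controls, against 50.7, 74.3 and 37.6 CPM in Phen-DC3 controls (-0.96 ± 0.24, adjusted p = 0.035). Usp9x had 59.7, 40.5 and 55.6 CPM in PDS controls, against 105, 111 and 68.4 CPM in Phen-DC3 controls (-0.86 ± 0.17, adjusted p = 0.019). The PDS control libraries of both genes lay below all Phen-DC3 control libraries. Dmd was at -1.01 ± 0.25, RGD1307100 at -0.84 ± 0.19 and Nfat5 at -0.80 ± 0.17. These are the same control libraries as in the compound comparisons, so the Phen-DC3 controls' higher level of long genes enters both this comparison and that of Phen-DC3. The count lower was 0 without PDS control replicate 2, Phen-DC3 control replicate 1 or Phen-DC3 control replicate 2 (2, 21 and 0 of all genes). It was 8 without PDS control replicate 3 (221 of all genes) and 48 without Phen-DC3 control replicate 3 (1682 of all genes). After the length correction 4 were higher (1.23% of all genes) and 2 lower (2.11%). The nucleus pulposus list summed to 374 to 431 CPM in PDS controls and 448 to 535 CPM in Phen-DC3 controls. The macrophage or leukocyte list summed to 108 to 114 CPM in PDS controls and 95.5 to 107 CPM in Phen-DC3 controls. Most of each difference was 1 gene, Hif1a (means of 198 and 289 CPM) and Cd14 (110 and 100 CPM). Krt8 (14.6 and 12.5 CPM) and Cd68 (1.07 and 1.15 CPM) went against the sums of their lists. The part of these lists in the result was not tested.

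Among themselves the long genes spanned a wide range of levels. Lrp1 had the highest mean level over the 18 libraries, 70.7 RPKM, followed by Kif1b at 45.0, Ahnak at 30.6, Fat1 at 29.7 and Abcb4 at 23.2 RPKM. The order depended on the experiment. In PDS libraries the mean level of Kif1b was 43.0 RPKM and that of Lrp1 14.9 RPKM, while in the control group they were 45.8 and 176 RPKM. The longest tested gene models were Pcdha13 (27070 bases), Macf1 (24116 bases), Dst (23724 bases), Adgrv1 (23017 bases) and Neb (20858 bases). Neb encodes the muscle protein nebulin and averaged 0.0290 RPKM. Pcdha13 belongs to the protocadherin alpha cluster, whose transcripts share exons. Its model overlaps 0 others in the deposited table, and which transcripts its counts come from is uncertain. Just inside the length threshold lay Map2 (10002 bases) and RGD1306556 (10030 bases), which had log2 fold changes of -0.71 and -0.12 with Phen-DC3. Just outside it lay RGD1565355 (9993 bases) and Unc80 (9988 bases), with 55 and 24 counts over all libraries, too few to be tested.

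Among the 33 long genes that were not tested, many are known from other tissues. They include the axonemal dynein heavy chains Dnah2, Dnah5, Dnah6, Dnah7, Dnah9, Dnah11 and Dnah12, the muscle genes Myh4 and Xirp2, the calcium release channel genes Ryr2 and Ryr3, the liver and gut apolipoprotein gene Apob, and the inner ear gene Otog. Only 6 of the 33 had 10 or more counts in any library. The highest totals were 105 counts for Sspo and 83 for Fat2, and Kcna2, Abca13 and Muc5b had 0 counts in all 18 libraries. For each of these genes that allows an expected total of up to about 3 counts over the 18 libraries together.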

How the data were processed

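Total RNA of 18 libraries was sequenced. The authors deposited 1 table of raw counts per gene, with each gene's position, biotype and length. Reads were processed with CASAVA, HISAT2 and featureCounts 1.5.0-p3, per the submitters' processing notes. Build, annotation and strand setting were not given in the sources used here, so reads of overlapping models may be shared.

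Counts were tested with edgeR 4.0.16 (R 4.3.3, limma 3.58.1) by the robust quasi-likelihood F-test, with TMM scaling, the filter filterByExpr by group, 1 fit over all 18 libraries (12 residual degrees of freedom), and Benjamini-Hochberg adjustment over the 14184 tested genes at 0.05. Replicates of a group differed by more than sampling noise, so none were merged. Each compound was set against its own controls, control groups against each other, and compound effects against each other. Alternatives were RLE and upper-quartile scaling, no filter, DESeq2 1.42.0, the 6 libraries alone, a replicate block, each library left out, and a length correction. That correction took from each library a loess curve (span 0.5) of its log2 CPM deviation on log10 gene length. Shares of counts were compared by exact two-sided permutation tests. RPKM values were computed from the counts and the table's lengths. The scripts were tested on simulated data.

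Named genes were, per comparison, up to 5 in each direction with the largest fold change among called genes whose mean log2 CPM reached 2, up to 3 per role list by smallest p, a preset list, the 5 longest tested, the 5 highest in RPKM, the genes at the length threshold, and the 3 largest interactions in each direction. Other genes named in the text were chosen after their values were seen. The members and lists were chosen with earlier results of these data known. Some genes that meet these rules are not reported here.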

Additional observations from a re-analysis of the deposited data

Results flagged for a closer look

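The effects of the compounds on long genes differed in edgeR's quasi-likelihood test of the difference between log2 fold changes, with Benjamini-Hochberg adjustment over all tested genes. The PDS and Phen-DC3 effects differed for 54 long genes, with the higher value under PDS in all 54 (12.4% of all tested genes were higher and 7.76% lower). After the length correction 5 long genes were higher under PDS and 7 lower (6.85% and 6.42% of all genes). The differences were 1.73 for Fat4, 1.65 for Dmd and 1.51 for AABR07031193.1 on the log2 scale.

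The PDS and Braco-19 effects differed for 11 long genes, with differences of 1.53 for AABR07031193.1, 1.24 for Dmd, 1.01 for Fat4 and -0.92 for Svep1. Of the 11, 10 were higher under PDS and 1 lower, where 7.28% of all tested genes were higher and 6.75% lower. After the length correction 4 were higher and 7 lower (7.5% and 6.99% of all genes). The Phen-DC3 and Braco-19 effects differed for 1 long gene, Ahnak, by -0.77 (0.0353% of all genes were lower under Phen-DC3 and 0.0141% higher). The doses are not stated in the labels, so the compounds are not shown to be matched in dose. With 3 libraries in each group, single libraries could not be tested as outliers.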

How the results depend on the processing

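RLE size factors kept each of the 15 counts of long genes within 1.5 times of the reported one, and upper-quartile scaling each of the 12 counts from compound and control comparisons. The differences between compound effects were rerun only with RLE size factors, the replicate block and the length correction. They were not rerun with upper-quartile scaling, without the filter, with DESeq2 or with a library left out. Without the count filter, 1 long gene was higher in Phen-DC3 controls than in the control group, and with DESeq2 1 was higher there and 1 in PDS controls set against Phen-DC3 controls. On the 6 libraries compared alone, 12 rose with PDS, 0 fell with Phen-DC3, 1 rose and 3 fell with Braco-19 and 0 were lower in PDS controls than in Phen-DC3 controls. Leaving out 1 library gave 4 to 8 higher and 1 to 3 lower with PDS, 0 higher and 0 to 67 lower with Phen-DC3, 0 higher and 0 lower with Braco-19, 0 to 1 higher and 0 to 48 lower in PDS controls against Phen-DC3 controls, 2 higher and 100 to 103 lower in PDS controls against the control group, and 1 to 2 higher and 97 to 101 lower in Phen-DC3 controls against the control group. The difference in share of counts, in percentage points, then ran from 0.00236 to 0.0346 (PDS), -0.141 to -0.0963 (Phen-DC3), -0.0671 to 0.0507 (Braco-19), -0.0976 to -0.0527 (PDS controls against Phen-DC3 controls), -1.52 to -1.49 (PDS controls against the control group) and -1.45 to -1.41 (Phen-DC3 controls against it). It was -1.55 for PDS controls against the control group with mitochondrially encoded genes out of the total, and -1.70 (PDS controls) and -1.61 (Phen-DC3 controls) with no gene left out by name. The deviations of same-numbered libraries correlated weakly, from -0.25 (Phen-DC3, replicate 3) to 0.15 (Phen-DC3 controls against the control group, replicate 1). All 3 correlations were positive for Braco-19 (0.058, 0.072 and 0.0088) and for Phen-DC3 controls against the control group (0.15, 0.0033 and 0.098). With 3 libraries per group these values cannot settle whether the numbers pair libraries. With replicate number as a block, 1 long gene was higher in Phen-DC3 controls than in the control group and 0 differed between the Phen-DC3 and Braco-19 effects. The length correction gave 4 higher and 4 lower (PDS), 3 and 0 (Phen-DC3), 1 higher (Braco-19), 4 and 2 (PDS controls against Phen-DC3 controls), 43 and 42 (PDS controls against the control group), 41 and 36 (Phen-DC3 controls against it), 12 (PDS against Phen-DC3 effect, 5 higher and 7 lower), 11 (PDS against Braco-19 effect, 4 higher and 7 lower, where 10 were higher and 1 lower without it) and 0 (Phen-DC3 against Braco-19 effect) different effects. Block and length correction together gave 4 and 4, 1 and 0, 0 and 0 (Braco-19), 2 and 1, 45 and 42, and 40 and 37 in the same order. The length correction turned the sign of 11 named genes with Phen-DC3, without and with the block: Ahnak 0.095 and 0.094, Macf1 0.19 and 0.19, Dock8 0.10 and 0.10, Vps13d 0.023 and 0.024, Svep1 0.0075 and 0.0059, Herc1 0.084 and 0.085, Dync1h1 0.043 and 0.047, Plec 0.27 and 0.27, Lrp1 0.082 and 0.075, Utrn 0.051 and 0.051, Dst 0.067 and 0.067. The length trend that the correction removes is the difference between a gene's value before the correction and its value after it. The cause of that trend was not tested. Of the named genes' calls with 1 library left out, 188 held and 148 missed the threshold. Genes with few counts, such as Fat4 and Dmd, are limited by depth.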
